A study of Mus musculus with 9 samples.

Results

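Lungs of mice killed immediately after 4 hours of high-stretch ventilation (VILI 0 hours, where VILI stands for ventilator-induced lung injury) were compared with lungs of control mice, 3 libraries against 3 of the 9 in the series. The genes described are protein-coding, with a mean of at least 1 FPKM over the 9 libraries, which 13079 of the 27203 gene IDs in the table reached (FPKM, fragments per kilobase of transcript scaled to all mapped fragments, is a level per transcript length). All mice were male C57BL/6, 6 to 8 weeks old, and each library came from the lung of 1 mouse. VILI mice were ventilated at a tidal volume of 20 ml/kg, 40 breaths per minute and an end-expiratory pressure of 0 cm H2O in room air, under repeated ketamine and xylazine and the muscle relaxant pancuronium, whereas control mice were intubated and left to breathe. The methods do not say whether control mice were kept under anaesthesia for the same 4 hours or were given the relaxant, so how far the groups differ in anaesthesia, paralysis and handling beside stretch is not known. The values marked the tissue as lung, since the alveolar type 2 gene Sftpc held 9939.7 to 12504 FPKM and the alveolar type 1 gene Ager 569 to 755 FPKM over the 6 libraries.

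Overstretched alveoli strain epithelium, endothelium and resident macrophages, which release mediators that draw neutrophils from the blood. Adrenal glucocorticoids are steroid hormones that enter cells, bind the receptor encoded by Nr3c1 and switch on genes that restrain inflammation and shift fuel use towards fat and protein. Fasting and low insulin act on an overlapping set of genes through the FoxO and PPAR transcription factors. The comparison asks which genes differed in lung RNA at the moment the ventilator was stopped.

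**Figure D1:**
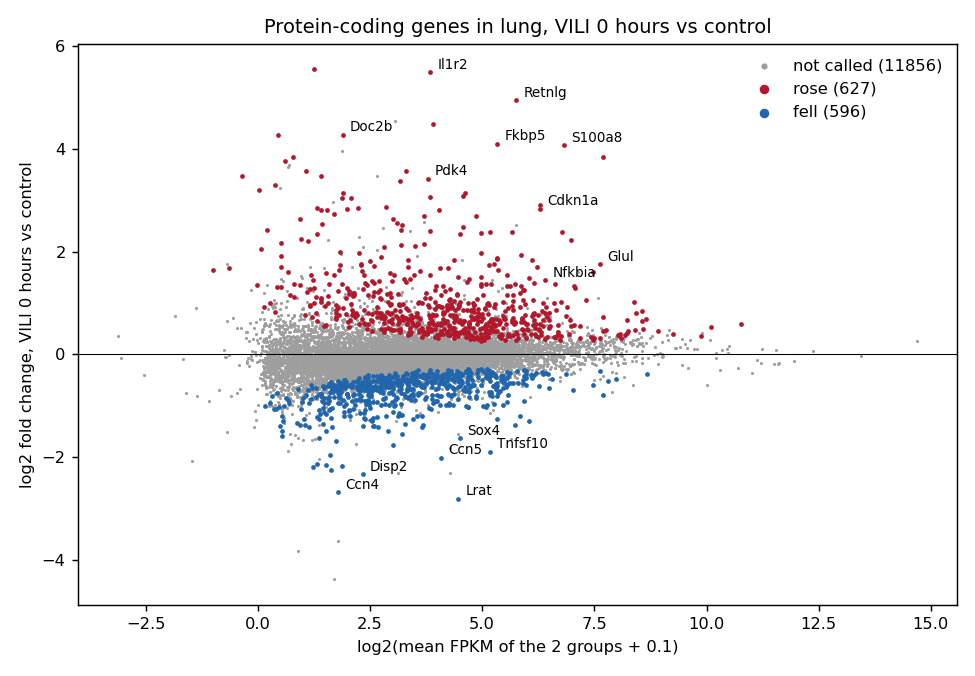
Each point is 1 of the 13079 protein-coding genes, with the mean level of both groups on the x axis, as log2(FPKM + 0.1), and the log2 fold change of VILI 0 hours vs control on the y axis; 627 genes that rose are red, 596 that fell are blue and the rest are grey. Among the labelled genes the log2 fold change runs from -2.81 for Lrat to 5.50 for Il1r2, and the filter on the mean of 9 libraries favours genes low in control over genes low after ventilation.

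In VILI 0 hours vs control, 627 genes rose, which is 4.79% of the genes described, and 596 fell, which is 4.56%, together 9.35%, at a Benjamini-Hochberg adjusted p under 0.05 in limma, the test used for every adjusted p below. None of these 1223 genes overlapped between the groups, against 4798 non-overlapping genes in all (14.0% higher and 22.6% lower). At an unadjusted P under 0.05, 3762 genes (28.8%) differed, 1489 (11.4%) higher and 2273 (17.4%) lower, and this split turned with the scaling, since centring each library on its median gave 1949 higher and 1728 lower. The split of the adjusted calls moved too, to 760 rises and 502 falls with centred libraries. Rises were larger than falls: the median log2 fold change was 0.76 for genes that rose and -0.62 for genes that fell, 205 rises and 89 falls had a log2 fold change of at least 1 in size, and 61 rises and 9 falls of at least 2. The mean over 9 libraries, 6 of them of ventilated mice, lets in a gene near 0 in control that rose more readily than one that fell to near 0, and with the filter set on the larger of the control and VILI 0 hours means instead, a choice made after seeing the data, these numbers were 212 and 110, and 64 and 10. The number of calls depended on the libraries in the fit. It was 223, 211 and 300 without control replicate 1, 2 or 3 (161, 146 and 194 rises against 62, 65 and 106 falls), it was 547 without VILI 0 hours replicate 3 (327 rises and 220 falls), and it was 45 (35 rises and 10 falls) when the widely spread VILI 6 hours libraries joined the estimate of the spread, although 85.9% of the 1223 genes kept an unadjusted P under 0.05 in that fit. Of the 1223 genes 218, 202 and 289 were among those called without control replicate 1, 2 or 3, so that most single calls below rest on all 3 control libraries. All 1223 kept an unadjusted P under 0.05 without any 1 library. Neither this nor the 85.9% is separate support, since a looser threshold was applied to genes chosen in the same libraries.

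Library-wide measures moved with the groups as well. Genes of the annotation class TEC, single-exon loci not yet experimentally supported, held 0.278% to 0.331% of the summed FPKM in control and 0.203% to 0.232% in VILI 0 hours. Ribosomal protein genes held 4.22% to 4.56% against 4.59% to 5.29%, and haemoglobin genes 0.835% to 1.13% against 1.26% to 1.39%. Spearman correlations over genes were 0.988 to 0.989 within control, 0.973 to 0.982 within VILI 0 hours and 0.953 to 0.970 between the groups. Their part in the gene results was not tested.

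**Figure D2:**
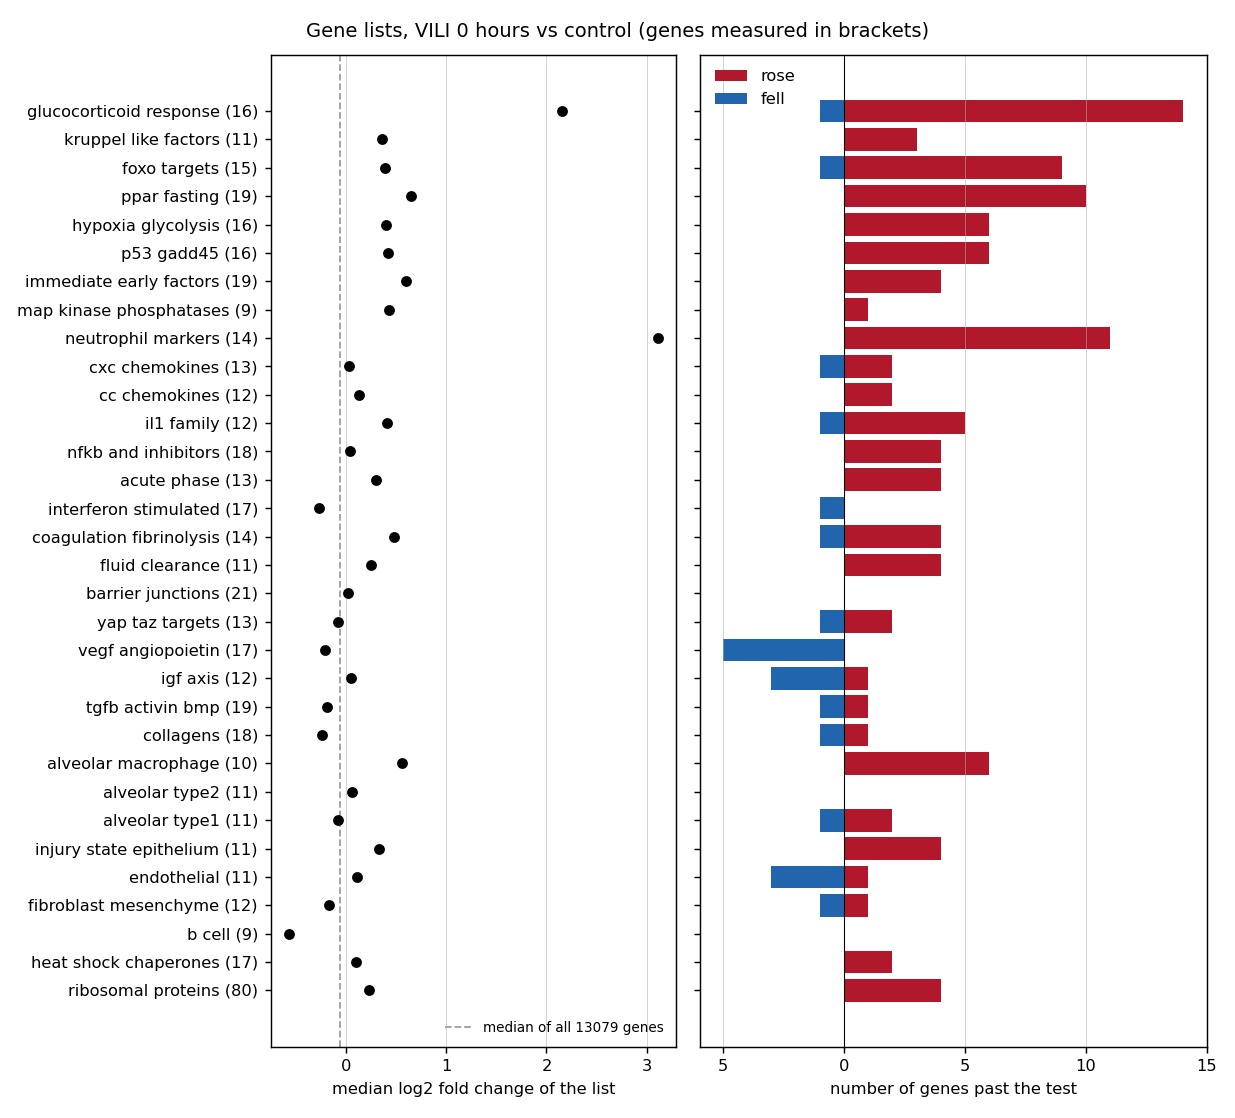
For 32 gene lists, with the number of measured genes in brackets, the left panel gives the median log2 fold change of VILI 0 hours vs control beside that of all 13079 genes (dashed line), and the right panel the number of genes that rose (red, to the right) or fell (blue, to the left). The neutrophil markers, at 3.11, and the glucocorticoid response genes, at 2.16, stand to the right of all other lists, and the VEGF and angiopoietin list shows the most falls, 5.

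Genes known as targets of the glucocorticoid receptor had the highest share of calls of any list. Of 16 such genes measured, 14 rose and 1 fell, with a median log2 fold change of 2.16 against -0.06 over all genes. Promoters of 3 members of this list are shown first because they carry the letters that the receptor, or the zinc-sensing factor that also drives metallothioneins, is known to bind. The sequences are the 250 bases before the RefSeq gene start (GRCm38.p6), 5′ to 3′ on the strand of the gene, which is the plus strand for all 3. In the Sgk1 window, chr10:21993640-21993889, capitals mark the palindromic glucocorticoid response element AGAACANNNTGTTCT, and in the Mt1 window, chr8:94178839-94179088, and the Mt2 window, chr8:94172368-94172617, they mark the metal response element core, TGCACNC or TGCGCNC, or its reverse complement.
Sgk1: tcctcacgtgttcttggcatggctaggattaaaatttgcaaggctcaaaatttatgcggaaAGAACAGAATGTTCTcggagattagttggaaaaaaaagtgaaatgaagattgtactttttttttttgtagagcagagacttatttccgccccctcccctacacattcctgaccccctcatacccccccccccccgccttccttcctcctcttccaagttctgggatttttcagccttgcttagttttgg
Mt1: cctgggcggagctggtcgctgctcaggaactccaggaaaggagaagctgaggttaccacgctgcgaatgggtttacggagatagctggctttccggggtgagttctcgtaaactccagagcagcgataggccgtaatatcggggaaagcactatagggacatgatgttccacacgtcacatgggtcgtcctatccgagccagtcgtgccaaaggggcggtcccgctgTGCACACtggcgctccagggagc
Mt2: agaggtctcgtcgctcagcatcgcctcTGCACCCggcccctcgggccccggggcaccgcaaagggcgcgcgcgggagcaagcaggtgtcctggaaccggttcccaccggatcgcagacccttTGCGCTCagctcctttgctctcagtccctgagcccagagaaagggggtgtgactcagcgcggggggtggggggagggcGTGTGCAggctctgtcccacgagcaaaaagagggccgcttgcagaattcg
Both strands were searched. The full glucocorticoid palindrome was in 3 of the 32851 promoter windows of the reference (0.00913%), and the Sgk1 window, 1 of 6 listed for that gene, held it from 189 to 175 bases before the start. Of the 12 genes of the list with a window, only Sgk1 held it. The short metal core is common, in 21.4% of windows, and 3 or more matches, as in Mt2, were in 1.26%. A match is a string of letters and was not tested as a binding site.

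Among the feedback and effector genes of the hormone, Fkbp5, which encodes a co-chaperone that lowers the receptor's affinity for its ligand, stood at 4.62, 4.43 and 3.53 FPKM in control replicates 1 to 3 and at 86.3, 46.5 and 96.5 FPKM after ventilation replicates 1 to 3. Every ventilated lung was thus above every control lung by a wide margin, with replicate 2 the lowest, and the log2 fold change was 4.10 ± 0.27 (SE, adjusted p = 0.00128). Zbtb16, a zinc-finger repressor often used as a marker of receptor activity, went from 14.2, 24.2 and 17.4 to 139, 118 and 154 FPKM (log2 fold change 2.90 ± 0.19, adjusted p = 0.00133). Tsc22d3, which encodes the anti-inflammatory protein GILZ, was already abundant in control, at 75.8, 86.8 and 97.1 FPKM, and reached 206, 253 and 346 FPKM (log2 fold change 1.61 ± 0.19, adjusted p = 0.00623). The clock gene Per1, which the receptor induces directly, rose from 15.7, 13.7 and 23.2 to 65.7, 47.6 and 62.5 FPKM.

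The kinase gene Sgk1, whose promoter is printed above and whose product keeps the epithelial sodium channel at the membrane, measured 40.7, 40.2 and 41.4 FPKM in control and 98.0, 55.6 and 97.1 FPKM after ventilation. Its rise of 0.99 ± 0.21 on the log2 scale (adjusted p = 0.0338) was the smallest of the 14. The metallothioneins bind zinc and buffer oxidants. Mt1 went from 34.0, 35.4 and 33.3 to 154, 90.8 and 98.6 FPKM and Mt2, with 3 metal cores in its window, from 13.6, 19.1 and 13.6 to 129.8, 55.2 and 72.6 FPKM, log2 fold changes of 1.70 and 2.39, both highest in replicate 1. Errfi1, a brake on the EGF receptor, Ddit4, a brake on the growth kinase mTOR, Cebpd, a transcription factor of the acute phase, and the sulfotransferase Sult1a1 rose by 2.39, 2.70, 2.38 and 1.94 on the log2 scale. The 1 gene that fell was the receptor itself, Nr3c1, with 63.5, 63.8 and 71.7 FPKM in control and 49.6, 46.2 and 40.5 FPKM after ventilation (log2 fold change -0.55 ± 0.09, adjusted p = 0.0191), a call lost without any 1 control library. Dusp1, a phosphatase that switches off stress kinases, did not pass the test: replicate 3 held 496 FPKM and the other two 106 and 78.7 FPKM (control 53.9, 48.6 and 56.7, adjusted p = 0.156).

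**Figure D3:**
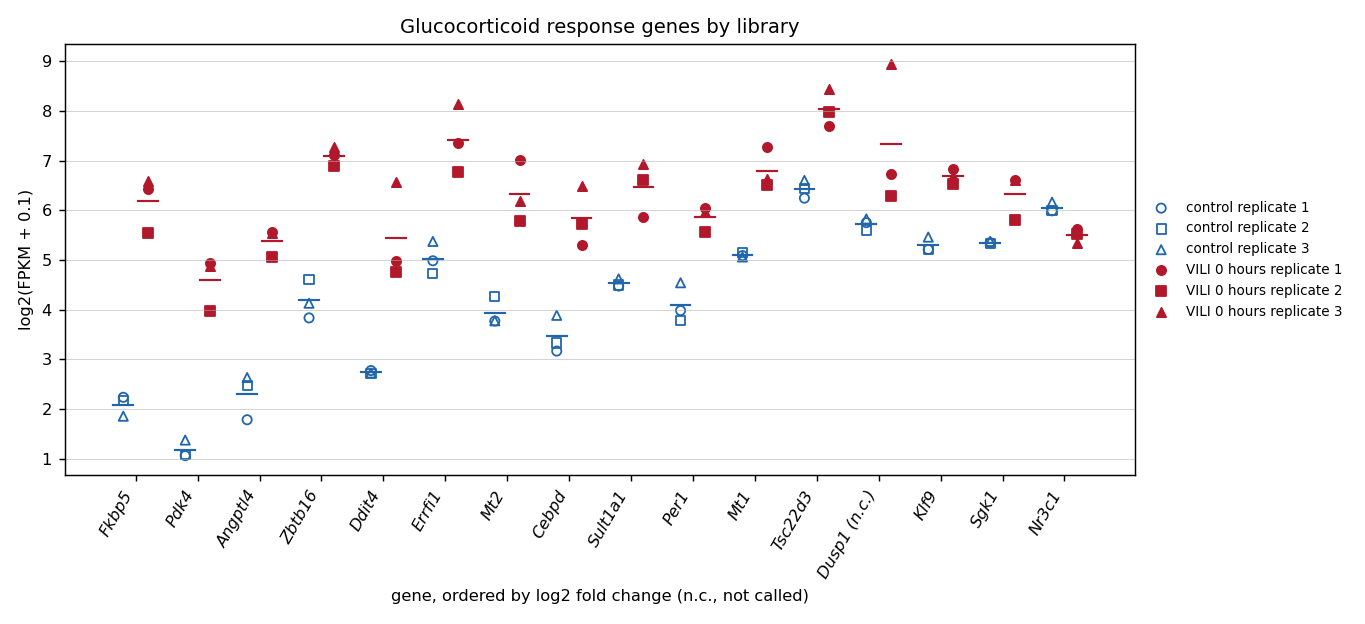
The 16 glucocorticoid response genes are on the x axis and log2(FPKM + 0.1) is on the y axis, with control libraries as open blue symbols, VILI 0 hours libraries as filled red symbols, symbol shape giving the replicate number and short lines the group means. For each of the 16 genes the groups do not overlap, Nr3c1 alone is lower in VILI 0 hours, and VILI 0 hours replicate 2 (squares) is the lowest of the ventilated lungs for 12 genes.

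VILI 0 hours replicate 2 was the lowest ventilated library for 12 of the 16 genes. The same library differed from the other ventilated libraries in clock genes. Arntl, the activator at the core of the clock, held 16.1, 2.86 and 14.0 FPKM in replicates 1 to 3. Dbp, an output gene in opposite phase, held 3.80, 41.0 and 4.56 FPKM. Over all genes replicate 2 was the ventilated library closest to control (Spearman 0.967 to 0.970, against 0.953 to 0.958 for replicates 1 and 3). Its part in the glucocorticoid values was not tested, but 14 genes rose without replicate 2 as well. Without control replicate 1 or 2, 8 and 9 genes rose, and in the fit with the VILI 6 hours libraries none passed the adjusted threshold, with 12 higher and 1 lower at an unadjusted P under 0.05.

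Glul, glutamine synthetase, which makes glutamine from ammonia and glutamate and was not on the glucocorticoid list, went from 89.2, 88.1 and 93.1 to 303, 276 and 338 FPKM and had 1 of the smallest adjusted p values of any gene (log2 fold change 1.76 ± 0.09, adjusted p = 0.000781). Tat, tyrosine aminotransferase, a liver enzyme and a classical target of the receptor, was near 0 in control (0.0391, 0.120 and 0.0686 FPKM) and at 3.81, 0.777 and 3.65 FPKM after ventilation. Klf15 and Klf9, the latter counted among the 14 rises above, encode Krüppel-like factors that relay the hormone to metabolic genes and rose from 10.4, 8.81 and 10.8 to 55.3, 39.2 and 63.7 FPKM and from 37.0, 37.0 and 44.0 to 115, 92.9 and 103 FPKM, and with Klf13 they made 3 of 11 Krüppel-like factors that rose, none falling. Doc2b, a calcium sensor of vesicle release, showed one of the largest ratios, from 0.205, 0.215 and 0.220 FPKM in control to 6.53, 2.79 and 11.6 FPKM (log2 fold change 4.28 ± 0.46, adjusted p = 0.00507). Its fold was 2.55 on the log2 scale with a pseudocount of 1.

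Genes of fuel use gave rises only. Of 19 genes of fatty acid use and fasting, most of them PPAR targets, 10 rose and none fell, with a median log2 fold change of 0.65. Pdk4, the kinase that closes the entry of glucose carbon into the mitochondrion, went from 1.99, 2.03 and 2.50 to 30.7, 15.6 and 29.4 FPKM, and Angptl4, a secreted inhibitor of lipoprotein lipase, from 3.35, 5.49 and 6.11 to 47.1, 33.1 and 46.6 FPKM. Both are also glucocorticoid targets and were counted in both lists. The fasting genes that were not on the other list included the mitochondrial uncoupling protein gene Ucp2, which rose by 1.29, the acyl-CoA thioesterase gene Acot1, by 1.23, and the fatty acid transporter gene Cd36, by 0.65 on the log2 scale. With 1 library left out the list gave 3 to 8 rises, fewest without control replicate 2, and 11 to 14 genes higher at an unadjusted P under 0.05.

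FoxO factors act when insulin signalling is low, and 9 of 15 genes of that axis rose while 1 fell. Foxo3 itself was at 28.9, 28.0 and 29.3 FPKM in control and 63.1, 58.1 and 72.0 FPKM after ventilation, a log2 fold change of 1.16 ± 0.09 (adjusted p = 0.00186). Irs2, an insulin receptor adaptor, Txnip, an inhibitor of glucose uptake, Fbxo32, a ubiquitin ligase of muscle wasting, and Sesn1, a stress sensor that restrains mTOR, rose by 0.89, 0.84, 0.73 and 1.37 on the log2 scale. Sesn3 of the same family fell, from 11.9, 11.3 and 10.9 to 7.39, 8.36 and 8.04 FPKM, a call lost without any 1 control library or VILI 0 hours replicate 3 (adjusted p from 0.0547 to 0.0919). Foxo1 missed the threshold at a log2 fold change of 0.31 (adjusted p = 0.079). Only 2 of the 9 rose without control replicate 2, although 11 were higher at an unadjusted P under 0.05.

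Hypoxia-linked and glycolytic genes gave 6 rises and no fall among 16. Hif3a, a member of the hypoxia-inducible factor family that can dampen the other members, stood at 0.975, 1.12 and 0.933 FPKM in control and 7.36, 5.88 and 11.2 FPKM after ventilation (log2 fold change 2.85 ± 0.24, adjusted p = 0.00229). The mitophagy receptor gene Bnip3 went from 20.8, 19.7 and 20.9 to 60.5, 49.1 and 49.8 FPKM. Hexokinase 2 (Hk2), the glycolytic regulator Pfkfb3 and the vasodilator peptide gene Adm rose by 1.19, 0.996 and 1.42 on the log2 scale. Hif1a, the oxygen-regulated subunit, had 25.5, 25.5 and 26.5 FPKM in control and 27.3, 27.2 and 23.6 FPKM after ventilation, a log2 fold change of 0.01 ± 0.08, though the factor is controlled mainly at the protein level. Of the list 3 genes rose without control replicate 2 or 3, Adm not among them (adjusted p = 0.0739 and 0.0616), and none passed the adjusted threshold in the fit with the VILI 6 hours libraries, with 8 higher at an unadjusted P under 0.05.

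Of 16 growth arrest genes of the p53 and Gadd45 list, 6 rose and none fell. Gadd45g, a stress sensor that slows the cell cycle, was among the most uniform changes in the data, at 9.04, 7.90 and 9.85 FPKM in control and 32.4, 33.3 and 30.6 FPKM after ventilation (log2 fold change 1.84 ± 0.10, adjusted p = 0.00086). Cdkn1a, which encodes the cell cycle inhibitor p21, varied far more between ventilated lungs, with 207, 43.0 and 173 FPKM against 14.2, 19.0 and 15.6 FPKM in control. Its log2 fold change of 2.83 ± 0.54 (adjusted p = 0.0255) lost the call when any library but VILI 0 hours replicate 2 was left out, with adjusted p from 0.0649 to 0.107. The p53 targets Zmat3 and Phlda3 were lower at an unadjusted P only, by log2 fold changes of -0.38 and -0.57, and Trp53 itself measured -0.40 (adjusted p = 0.149). The list gave 1 rise without any 1 control library, with 6 to 8 genes higher at an unadjusted P under 0.05, and 3 without VILI 0 hours replicate 1 or 3.

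Neutrophil genes gave the largest ratios among the genes named by size. Neutrophils are short-lived phagocytes that marginate in lung capillaries and carry granules of proteases and calprotectin. Of the 16 markers, 14 were measured above the filter, 11 rose, none fell, and the median log2 fold change was 3.11, or 2.20 with a pseudocount of 1, since several markers were near or below 1 FPKM in control and some passed the filter through the ventilated libraries. Their summed level was 56.3 to 68.0 FPKM in control and 590.2 to 1066 FPKM in VILI 0 hours. In whole lung, more cells of a type and more RNA per cell cannot be told apart.

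The calprotectin subunit genes S100a8 and S100a9 were the most abundant, S100a8 with 15.01, 9.94 and 12.5 FPKM in control and 161, 279.7 and 203 FPKM after ventilation, S100a9 with 26.6, 23.4 and 29.3 and 269, 490.3 and 412 FPKM. VILI 0 hours replicate 1 was the lowest ventilated library for both, as for 11 of the 14 markers, yet above every control library. Retnlg, a resistin-like protein of mature neutrophils, went from 2.70, 3.79 and 3.17 to 76.5, 141 and 96.6 FPKM (log2 fold change 4.95 ± 0.23, adjusted p = 0.000664), and it kept the call in every alternative tried. Among receptors, Cxcr2, which reads CXC chemokines, rose from 1.53, 1.33 and 1.24 to 10.6, 20.8 and 23.3 FPKM and Csf3r, the receptor of granulocyte colony-stimulating factor, from 7.47, 7.09 and 6.29 to 23.7, 33.4 and 57.1 FPKM. Il1r2, a decoy receptor that traps interleukin-1 and is itself induced by glucocorticoids, had the largest log2 fold change under the naming rule, 5.50 ± 0.58 (adjusted p = 0.00466), with 0.261, 0.451 and 0.465 FPKM in control and 9.42, 19.5 and 55.2 FPKM after ventilation.

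Among granule genes Mmp8 and Mmp9, a collagenase and a gelatinase, rose by 4.48 and 2.56 on the log2 scale. Ngp, a granule protein of maturing neutrophils, rose from 0.568, 1.14 and 0.494 to 5.14, 4.39 and 3.96 FPKM, Camp and Ltf, at log2 fold changes of 1.77 and 1.29, did not pass the test (adjusted p = 0.141 and 0.159), and Elane and Mpo were below a mean of 1 FPKM. Ly6g, the surface antigen by which mouse neutrophils are sorted, was at 0 in control replicates 1 and 3, at 0.0532 FPKM in control replicate 2 and at 0.743, 2.33 and 0.941 FPKM after ventilation. In the fit with the VILI 6 hours libraries 6 of the 11 markers kept the call, and with any 1 library left out 10 or 11 did.

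**Figure D4:**
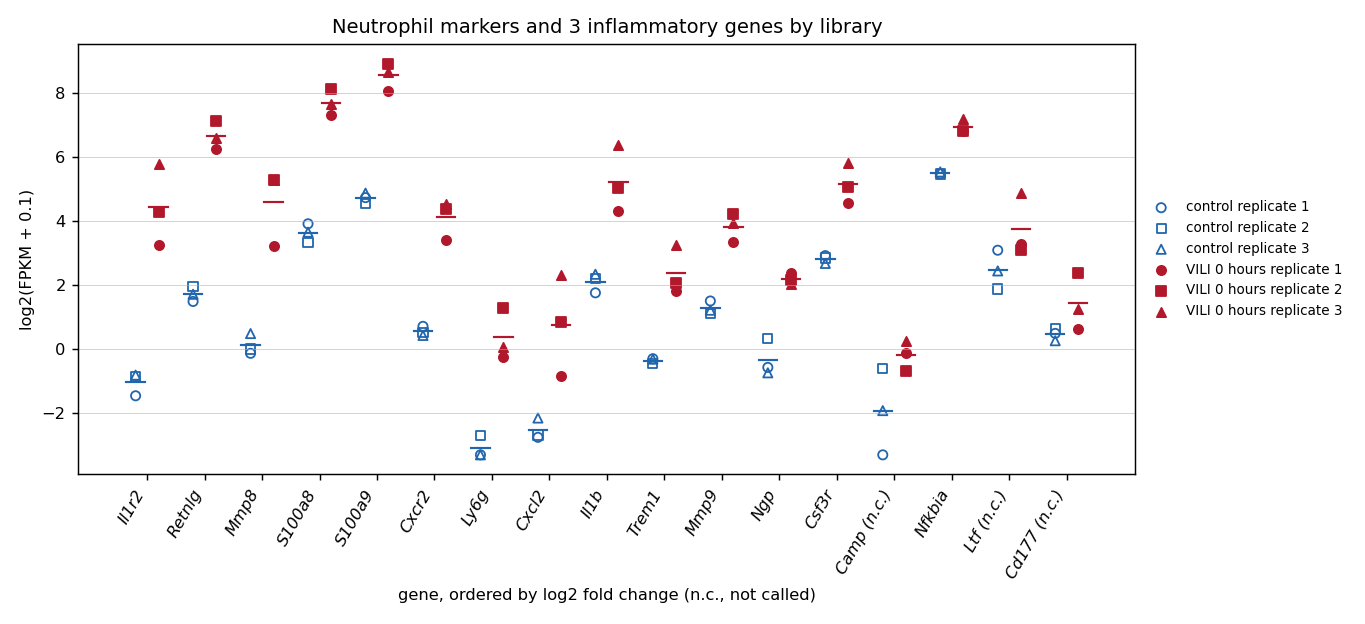
The 14 measured neutrophil markers with Il1b, Cxcl2 and Nfkbia are on the x axis and log2(FPKM + 0.1) is on the y axis, with control libraries as open blue symbols, VILI 0 hours libraries as filled red symbols and short lines for group means. The groups are separated for all genes that rose, and Camp, Ltf and Cd177 (n.c.) did not pass the test. VILI 0 hours replicate 1 (circles) is the lowest ventilated library for most markers.

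Beside these markers, Clec4d, a lectin receptor for microbial and dead-cell ligands, went from 0.916, 1.53 and 1.48 to 6.82, 15.1 and 27.7 FPKM. Tarm1, a receptor, and Pram1, an adaptor of granulocytes, and Gm5483, a cystatin-like gene, rose by 3.84, 3.57 and 3.47 on the log2 scale from control levels under 1 FPKM. Pram1 was uneven in control, at 0.872, 0.0541 and 0.0574 FPKM, so its fold depends on control replicate 1. The selectin ligand gene Selplg, by which leukocytes roll on vessels, rose by 0.98, 1 of 2 rises among 10 leukocyte adhesion genes, of which 1 was left without control replicate 2 or 3. Alox5ap, which hands arachidonic acid to the leukotriene pathway, rose by 1.03, a call lost without any 1 control library or VILI 0 hours replicate 3 (adjusted p from 0.06 to 0.0784). Acod1, which makes itaconate in activated myeloid cells, was at 0 in 2 control libraries and 0.0375 FPKM in the other, against 0.689, 3.13 and 3.78 FPKM after ventilation. Mrgpra2b, a receptor of neutrophils, was at 0 in 1 control library and at 0.726, 2.72 and 1.76 FPKM after ventilation. Ppp2r5b, a phosphatase subunit, was listed at 0 in all 3 control libraries and at 4.07, 4.83 and 4.88 FPKM after ventilation, so no fold is given.

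The chemokines and cytokines themselves gave a narrower picture. Of 13 CXC chemokines, 2 rose and 1 fell. Cxcl2, the main neutrophil attractant of mouse macrophages, was low in every library, 0.0463, 0.0538 and 0.122 FPKM in control and 0.449, 1.68 and 4.84 FPKM after ventilation (log2 fold change 3.31 ± 0.73, adjusted p = 0.0375), and it lost the call with a pseudocount of 1 (adjusted p = 0.0936) and without any of the libraries except VILI 0 hours replicate 1. Cxcl15, a chemokine of lung epithelium, was abundant and rose from 215, 304 and 238 to 408, 395 and 515 FPKM. Cxcl14, made by epithelium at rest, fell from 80.7, 90.7 and 67.3 to 48.1, 33.1 and 25.7 FPKM. The neutrophil chemokine gene Cxcl1 measured 0.643, 0.769 and 0.749 FPKM in control and 0.145, 1.33 and 0.288 FPKM after ventilation and did not pass the test. In the CC family Ccl6 and Ccl9 rose by 0.80 and 1.26 on the log2 scale, 2 of 12, while Ccl2, the monocyte attractant, measured 0.895, 0.797 and 0.609 FPKM and 0.302, 0.911 and 0.221 FPKM. No CXC gene was called without control replicate 1 or 3 or VILI 0 hours replicate 3, and both called CC genes missed the threshold without any 1 control library or VILI 0 hours replicate 3. Falls in the CC family numbered 3 without VILI 0 hours replicate 2 and 1 without replicate 1.

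Interleukin-1 genes moved on both sides of the signal, with 5 rises and 1 fall among 12. Il1b, the secreted cytokine, went from 3.27, 4.48 and 4.95 to 19.6, 32.5 and 82.7 FPKM (log2 fold change 3.14 ± 0.47, adjusted p = 0.0128), with adjusted p of 0.0693, 0.0679 and 0.057 without control replicate 1, 2 or 3. Il1rn, the antagonist that occupies its receptor, went from 2.54, 2.74 and 3.47 to 5.82, 8.53 and 8.63 FPKM, so that the agonist and the decoy and antagonist genes were all higher. The alarmin gene Il33 fell from 33.2, 33.7 and 36.1 to 16.0, 22.3 and 13.2 FPKM (log2 fold change -1.03 ± 0.18, adjusted p = 0.0184), but it lost the call without any 1 control library or VILI 0 hours replicate 1, and its most abundant transcript alone gave 0.19. Without control replicate 1 or 2, 2 of the 5 rises were called. Interleukin-6 and tumour necrosis factor genes were near the floor, Il6 with 0.232, 0.277 and 0.138 FPKM in control and 0.385, 0.0961 and 0.162 FPKM after ventilation, Tnf with 0.960, 0.829 and 0.522 and 1.08, 1.16 and 0.369 FPKM, and neither passed the test. Osm, a cytokine of the interleukin-6 family made by neutrophils, rose from 0.316, 0.359 and 0.329 to 1.16, 2.22 and 6.61 FPKM.

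Of 18 NF-kB genes, 4 rose and none fell, and 7 were higher and 2 lower at an unadjusted P under 0.05. Nfkbia, which encodes the inhibitor that holds NF-kB in the cytoplasm and which both NF-kB and glucocorticoids induce, stood at 44.7, 44.5 and 46.5 FPKM in control and 112, 114 and 146 FPKM after ventilation (log2 fold change 1.44 ± 0.11, adjusted p = 0.00179). Birc3, an anti-apoptotic ubiquitin ligase, Tnfaip3, a deubiquitinase that ends the signal, and Tnfrsf1a, a receptor of tumour necrosis factor, rose by 0.89, 0.59 and 0.31 on the log2 scale. The transcription factor genes Rela and Nfkb1 measured log2 fold changes of -0.03 ± 0.10 and -0.10 ± 0.09. Other attenuators that rose were Socs3, a brake on cytokine receptors (12.2, 9.82 and 11.3 to 22.7, 44.7 and 30.7 FPKM), and Zfp36, which degrades cytokine transcripts (34.6, 30.3 and 31.3 to 60.7, 73.6 and 117 FPKM). Socs1, the brake on interferon signalling, fell by 0.79 on the log2 scale. None of these 3 was called without any 1 control library, with adjusted p from 0.0604 to 0.106, and neither Socs gene was without VILI 0 hours replicate 3. Of the 4 NF-kB genes 1 was still called without any 1 control library, and 2 were without VILI 0 hours replicate 3.

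Acute phase and clotting genes each gave 4 rises. Serpina3n, a protease inhibitor, rose from 19.9, 20.5 and 15.6 to 39.7, 53.1 and 53.8 FPKM, Lrg1, a vascular glycoprotein, from 14.8, 21.2 and 16.9 to 50.1, 33.2 and 52.4 FPKM, and Lcn2, which withholds iron from bacteria, from 55.4, 80.2 and 58.8 to 143, 95.4 and 104 FPKM. Tissue factor (F3), which starts clotting, the plasminogen activator Plat and the urokinase receptor Plaur rose by 0.97, 0.93 and 1.18 on the log2 scale, and urokinase itself (Plau) fell from 3.63, 3.63 and 3.23 to 2.35, 2.50 and 2.04 FPKM, a call lost with any 1 of the 6 libraries left out (adjusted p from 0.0524 to 0.164). Of the 13 acute phase genes and the 14 clotting genes, 1 each rose without control replicate 1 or 3, and 2 each without VILI 0 hours replicate 1 or 3. Without VILI 0 hours replicate 1, 1 acute phase gene fell as well.

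Of 19 immediate early transcription factors, 4 rose: Maff by 1.55, Fosl2 by 1.41, Mafk by 0.87 and Jun by 0.67 on the log2 scale, none of them called without any 1 control library, while the list gave 7 rises without VILI 0 hours replicate 2. The serum and stretch response genes Fos and Egr1 did not separate the groups. Fos held 17.6, 14.0 and 89.6 FPKM after ventilation against 24.7, 15.2 and 14.6 FPKM in control, so that replicate 3 alone was high, and Egr1 held 11.4, 6.78 and 28.8 against 18.8, 11.8 and 15.5 FPKM. The inducible chaperone genes Hspa1a and Hspa1b were highest in the same library, Hspa1a with 12.2, 5.85 and 37.0 FPKM (control 2.94, 2.08 and 2.62, adjusted p = 0.0503). Among 17 chaperone genes the small heat shock genes Hspb1 and Hspb8 rose, by 0.71 and 0.996, and the list gave 1 rise without any 1 control library but 4 rises and 1 fall without VILI 0 hours replicate 2.

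Genes that clear fluid from the air spaces gave 4 rises. Alveolar fluid is resorbed as sodium enters through the epithelial channel and leaves through the sodium pump, water following. Atp1b1, the regulatory subunit of the pump, went from 103, 101 and 108 to 209.8, 212 and 227 FPKM with little spread between lungs (log2 fold change 1.06 ± 0.07, adjusted p = 0.00125). Scnn1g, a channel subunit, rose from 33.8, 35.99 and 39.6 to 48.3, 53.6 and 64.8 FPKM, and Nedd4l, the ubiquitin ligase that removes the channel, from 14.0, 14.0 and 13.6 to 20.9, 20.4 and 24.2 FPKM. No gene of the 11 on this list fell, with 6 higher and 4 lower at an unadjusted P under 0.05, and the chloride channel gene Cftr, at a log2 fold change of -0.52, missed the adjusted threshold (adjusted p = 0.0606). Of the 4, 2 were called without any 1 control library. Genes of the junctions that seal epithelium and endothelium gave no call among 21 in limma, with 3 higher and 3 lower at an unadjusted P under 0.05, but 2 rises and 1 fall without VILI 0 hours replicate 2 and 1 fall without replicate 1. Cldn5, the endothelial claudin, measured 133, 141 and 139 FPKM in control and 172, 125 and 171 FPKM after ventilation (adjusted p = 0.45).

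Among genes that fell, the largest ratio was that of Lrat, which esterifies retinol for storage, from 42.5, 28.1 and 44.5 FPKM in control to 3.86, 4.95 and 7.58 FPKM after ventilation (log2 fold change -2.81 ± 0.27, adjusted p = 0.00362). The matricellular genes Ccn5 and Ccn4, secreted modulators of mesenchymal growth, fell as well, Ccn5 from 30.5, 25.4 and 25.8 to 6.15, 7.69 and 6.19 FPKM and Ccn4 from 5.38, 6.05 and 5.97 to 1.08, 1.03 and 0.483 FPKM. Their relative Ccn2, a target of the stretch-sensitive factors YAP and TAZ, rose by 0.77. Of the 13 genes on the list for these factors, 2 rose and 1, Tead1, fell. None of them was called without any 1 control library. Disp2, related to the transporter that releases hedgehog ligands, went from 10.6, 7.03 and 7.45 to 1.44, 1.53 and 1.67 FPKM. Sox4 and Sox11, transcription factors of progenitor and mesenchymal cells, went from 36.5, 32.3 and 33.7 to 14.5, 10.9 and 8.33 FPKM and from 12.3, 11.9 and 12.7 to 2.63, 4.20 and 4.01 FPKM.

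Among other large falls, Tnfsf10 (TRAIL), a death ligand, was abundant in control, at 54.9, 57.6 and 56.8 FPKM, and held 13.2, 22.1 and 11.7 FPKM after ventilation. Ackr4, a scavenger of the chemokines that guide dendritic cells to lymph nodes, fell from 5.65, 5.48 and 6.58 to 1.31, 1.70 and 0.819 FPKM. Pde5a, the phosphodiesterase that degrades cyclic GMP in pulmonary vessels, had 82.2, 75.1 and 82.5 FPKM in control and 41.4, 43.4 and 42.1 FPKM after ventilation, one of the most uniform falls (log2 fold change -0.92 ± 0.07, adjusted p = 0.00179). The beta-3 adrenergic receptor gene Adrb3, the histone methyltransferase family gene Prdm8, the filamin regulator gene Rflna, the Wnt and FGF antagonist gene Shisa2, the acetyltransferase-related genes Nat8f7 and Nat8f3 and the X-linked Xlr3b fell by log2 fold changes of -1.69, -2.14, -1.63, -2.20, -2.15, -1.95 and -2.25. Xlr3b, Nat8f7 and Nat8f3 belong to families of near-identical copies, so reads could be split between copies and their values are uncertain. Falls with small errors included Fat4, a large cadherin of the Hippo pathway (-1.19), Lbh, a transcription cofactor of mesenchyme (-1.29), and Magi3, a junction scaffold (-0.99).

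**Figure D5:**
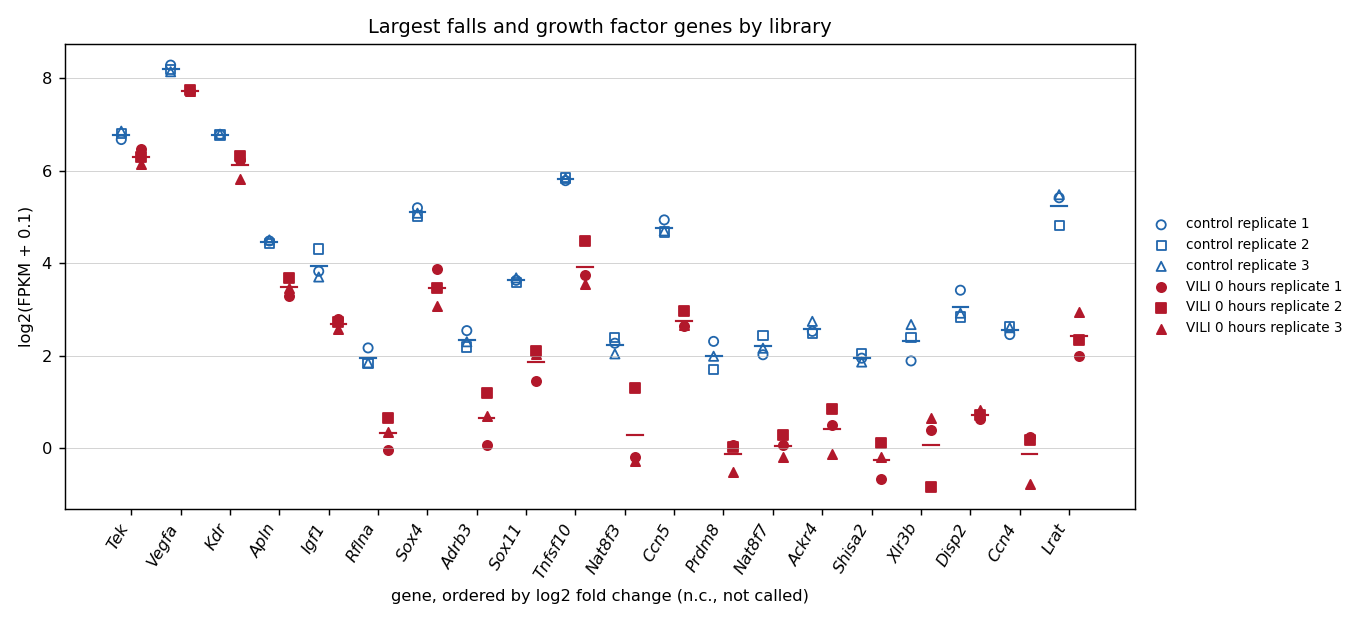
The 15 genes with the largest falls by the naming rule and 5 vascular and growth factor genes are on the x axis and log2(FPKM + 0.1) is on the y axis, with control libraries as open blue symbols, VILI 0 hours libraries as filled red symbols and short lines for group means. The groups do not overlap for any of the 20 genes, and the distance grows from Tek on the left, -0.47 on the log2 scale, to Lrat on the right, -2.81.

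Vascular growth genes gave falls and no rise. VEGF-A from alveolar epithelium maintains capillaries through the receptor encoded by Kdr, while the receptor Tek, bound by angiopoietins, keeps endothelium quiescent. Of 17 genes of these axes 5 fell and none rose, with a median log2 fold change of -0.21. Vegfa held 311, 289.9 and 282 FPKM in control and 211, 213 and 210.4 FPKM after ventilation (log2 fold change -0.47 ± 0.07, adjusted p = 0.0109). Kdr went from 109.7, 109 and 110.5 to 75.4, 79.2 and 56.5 FPKM, Tek from 102, 111 and 116 to 88.5, 78.3 and 70.9 FPKM, and the co-receptor gene Nrp2 from 18.8, 17.9 and 17.2 to 10.9, 12.6 and 11.1 FPKM. Apln, a peptide of tip endothelial cells, went from 22.2, 21.3 and 22.5 to 9.73, 12.8 and 10.97 FPKM. The angiopoietin genes Angpt1 and Angpt2 measured log2 fold changes of 0.04 and -0.34 and did not pass the test. Without control replicate 1 or 2, 1 of the 5 was called, with 7 lower at an unadjusted P under 0.05, and 3 were without control replicate 3. The pan-endothelial markers Pecam1 and Cdh5, at log2 fold changes of 0.16 and 0.26, were not called, and over 11 endothelial markers 3 fell (Tek, Kdr and Eng), 1 rose (Gpihbp1), and the summed level was 1311 to 1347 FPKM in control and 1330 to 1477 FPKM in VILI 0 hours. None of these 3 falls was called without any 1 control library, with 3 lower at an unadjusted P under 0.05 each time, and 1 was without VILI 0 hours replicate 2 or 3. With median-centred libraries 1 fall was called. None was with a replicate block, without a trend in the variance or with only the highest transcript row of a gene.

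Igf1, a growth factor of macrophages and mesenchyme, fell from 14.0, 19.7 and 12.9 to 6.81, 6.49 and 5.82 FPKM (log2 fold change -1.25 ± 0.16, adjusted p = 0.00847). The growth hormone receptor gene Ghr and the binding protein gene Igfbp5 fell by log2 fold changes of -0.42 and -0.59, so that 3 of 12 genes of the axis fell, and Irs2 was the 1 that rose. Igf1 alone of the 3 was called without any 1 control library. In the TGF-beta, activin and BMP list of 19, Fst, which traps activin, rose from 1.195, 1.05 and 0.827 to 2.24, 3.10 and 4.55 FPKM, and the endothelial co-receptor gene Eng fell from 145, 124 and 128 to 107, 98.3 and 101 FPKM. Neither was called without any 1 control library. At an unadjusted P under 0.05, 9 genes of that list were lower, among them Bmp4 at a log2 fold change of -0.55, and 3 higher. Over all genes 17.4% were lower and 11.4% higher at that P. With median-centred libraries 6 genes of the list were lower and 3 higher, and none fell at the adjusted threshold.

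Gene span differed with the direction of change. The median span of a gene on the genome was 42.4 kb for those that fell, 23.3 kb for those that rose and 24.4 kb over all genes, and 8.33% of the fifth of genes with the longest spans fell against 3.02% of the fifth with the shortest. Outside the protein-coding genes, 102 of 521 TEC loci fell and 5 rose, with a median log2 fold change of -0.51, and 25 of 136 sense intronic transcripts fell, beside 4.46% of genes of all types. Sense intronic transcripts held 0.399% to 0.423% of the summed FPKM in control and 0.328% to 0.438% in VILI 0 hours, so that the groups overlapped in this share. The part of gene span in the falls was not tested.

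Markers of resident cells moved less than those of neutrophils. Of 10 alveolar macrophage markers 6 rose, among them Siglecf, from 2.60, 2.37 and 3.34 to 6.37, 5.37 and 4.84 FPKM, Chil3, from 149.8, 129 and 186 to 209, 263 and 301 FPKM, and Mrc1, from 19.2, 19.9 and 20.9 to 24.9, 28.2 and 29.8 FPKM, while Marco measured 0.02. Their summed level was 243.3 to 331.5 FPKM in control and 402.0 to 467.3 FPKM in VILI 0 hours, but no marker was called without control replicate 1 or 2 (7 higher at an unadjusted P under 0.05 in each case), 2 were called without control replicate 3 or VILI 0 hours replicate 2 or 3, and the most abundant Siglecf transcript alone gave -0.26. None of 11 alveolar type 2 markers was called in limma, with 3 higher and 2 lower at an unadjusted P under 0.05. However, 1 fell without VILI 0 hours replicate 2, and 1, Abca3, rose with median-centred libraries (adjusted p = 0.0473). Of 11 alveolar type 1 markers 8 measured below control and 3 above (median log2 fold change -0.08), Hopx and Pdpn rose, by 0.47 and 0.57, and Vegfa, counted above, fell. None of these 3 was called without control replicate 1 or 2, and neither rise was without VILI 0 hours replicate 2 or 3. Of 11 genes of injured epithelium, 4 rose (Plaur, Ccn2, Lgals3 and Krt7) and none did without any 1 control library. Of 12 mesenchymal markers 8 measured below control, and their summed level was 1959 to 2072 FPKM in control and 1650 to 1826 FPKM in VILI 0 hours. Mfap4 fell and Dcn rose, by log2 fold changes of -0.79 and 0.39, and neither was called without control replicate 1 or 2 or VILI 0 hours replicate 3.

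Interferon and B cell genes had medians below 0 and few calls. Of 17 interferon-stimulated genes, 8 were lower and 1 higher at an unadjusted P under 0.05, beside 17.4% lower and 11.4% higher over all genes. With median-centred libraries 6 were lower and 1 higher at that P. At the adjusted threshold 1 fell, beside 4.56% over all genes, and the median log2 fold change was -0.27. No gene of this list was called without any 1 control library or VILI 0 hours replicate 1, with 6 to 9 lower at an unadjusted P under 0.05, and 4 fell without VILI 0 hours replicate 2. Ifit3, an antiviral effector, measured 49.8, 43.8 and 57.5 FPKM in control and 31.4, 28.5 and 14.9 FPKM after ventilation (adjusted p = 0.0547). The 9 B cell markers had a median of -0.57 with no call in limma and 2 lower at an unadjusted P under 0.05, a number that was 8 without VILI 0 hours replicate 1 (median -0.92). The median was -0.23 without VILI 0 hours replicate 3, which was the lowest ventilated library for all 9: their summed level was 65.8 to 87.7 FPKM in control and 27.2 to 82.2 FPKM in VILI 0 hours. That library was also the lowest ventilated one for 11 of 13 T and natural killer cell markers and for 47 of 62 replication histone genes.

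Ribosomal protein genes were slightly higher. Of 80, 41 were higher and none lower at an unadjusted P under 0.05, 4 rose at the adjusted threshold, a share near the 4.79% over all genes, and the median log2 fold change was 0.23. VILI 0 hours replicate 3 was the lowest ventilated library for 72 of the 80, with a median log2 difference from the control mean of 0.11 against 0.34 and 0.27 in replicates 1 and 2. Without control replicate 1, 2 or 3, 18, 16 and 47 were higher at that P, and none was called. Without VILI 0 hours replicate 1, 2 or 3, 26, 28 and 57 were higher at that P, with 1 lower without replicate 3. At the adjusted threshold 1 rose without replicate 1 or 2 and 5 without replicate 3. The 3 erythroid genes that rose, Hba-a1, Hbb-bs and Alas2, did so by 0.53, 0.59 and 0.53 on the log2 scale, beside the higher share of haemoglobin genes given above. They lost the call without control replicate 1 or 3 or any 1 VILI 0 hours library. Cholesterol synthesis genes gave 1 fall among 19 (Stard4, -0.55), lost without any 1 control library or VILI 0 hours replicate 3, and the stretch-gated channel gene Piezo1 measured 26.8, 24.6 and 23.1 FPKM in control and 24.5, 20.8 and 21.1 FPKM after ventilation, a log2 fold change of -0.17 ± 0.09. In the clock list of 17, Per1 and Nfil3 rose, the latter from 1.99, 2.90 and 2.36 to 12.0, 5.81 and 16.5 FPKM, and Arntl and Dbp, which split the ventilated lungs as given above, did not pass the test. Without VILI 0 hours replicate 2, which differed from the other ventilated libraries in these genes, the list gave 4 rises and 5 falls. Its median log2 fold change was then -0.29 (0.0084 with all 6 libraries). With any 1 other library left out it gave 1 rise, with 1 fall as well without VILI 0 hours replicate 1.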

How the data were processed

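Total lung RNA of 3 control and 3 VILI 0 hours mice was analysed, with the 3 VILI 6 hours libraries used in the expression filter and in 1 alternative. The FPKM values were deposited by the authors, who removed low-quality reads, aligned with TopHat2 2.0.9 and Bowtie2 2.0.6 to GRCm38 and estimated FPKM with Cuffdiff 2.1.1, versions and build per the labels. Counts were not used here, so precision rests on the spread between the 3 mice of a group. The 60108 transcript rows were summed per gene ID and named from GENCODE M21 (23580 of 23713 Ensembl IDs matched). Linear models of limma 3.58.1 (R 4.3.3), moderated with a variance trend, were fitted to log2(FPKM + 0.1) of the 6 libraries over 19378 genes of all types with a mean of at least 0.1 FPKM, and p-values were adjusted by Benjamini-Hochberg over all of these. Fold changes are on this log2(FPKM + 0.1) scale, which understates those of genes near 0.1 FPKM, and 44 described genes were at 0 in at least 1 library. The procedure was tested on simulated data with independent noise per gene and 200 changed genes. There 69.2% of changes of 1 and 92.8% of changes of 2 on the log2 scale were called, and 3.31% of calls were false. The simulation held no library-wide shifts such as those given above, so these rates do not carry over to the real data. Genes were named by size or p (15 of each per direction, above 0 in all libraries and not overlapping for size), as the 4 smallest p and the extremes of a list, as defining genes of a pathway, or for a 0; other list genes, and the clock and marker genes, were added after their values were seen. The genes described and the lists of general knowledge were chosen with earlier results of these data known. A few list genes are counted but not reported by name here. Promoters are from RefSeq. Python 3.11.15, pandas 2.3.3, numpy 2.4.6 and matplotlib 3.10.9 were also used. The library kit and sequencer named in the labels and in the methods differ, and which applies was not settled here.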

Additional observations from a re-analysis of the deposited data

Results flagged for a closer look

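Among 25 genes outside the protein-coding class with a mean of at least 1 FPKM, above 0 in all 6 libraries, past the adjusted threshold and higher without overlap, 3 had the largest log2 fold changes. Gm37347 held 0.0592, 0.113 and 0.0962 FPKM in control and 1.37, 5.70 and 19.2 FPKM after ventilation, a log2 fold change of 4.86, with the widest range between ventilated lungs of the 3. It lies wholly inside Il1r2 on the same strand, with the same order of the ventilated libraries, so the signal of both genes cannot be told apart here. Gm11827 held 0.276, 0.278 and 0.185 and 3.45, 1.86 and 5.32 FPKM, a log2 fold change of 3.29. Gm43181 held 0.521, 0.677 and 0.510 and 2.86, 6.53 and 9.57 FPKM, a log2 fold change of 3.11, and lies inside Fbxl5 on the same strand, which rose by 0.51 on the log2 scale, so that reads of either gene may be counted in the other. They stood above the level of the control libraries in all 3 ventilated lungs.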

How the results depend on the processing

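The number of genes with an adjusted p under 0.05, 1223, came to 45 with all 9 libraries in the fit, 634 without a trend in the variance and 613 with the highest transcript row of a gene in place of the sum. With 1 library left out it ranged from 211 to 1249. The number at an unadjusted P under 0.05, 3762, came to 2163 with all 9 libraries and ranged from 2607 to 3960 with 1 library left out. Pseudocounts of 0.01 and 1, other filters, among them the filter on the larger of the 2 group means added after seeing the data (635 rises and 618 falls), and median-centred libraries kept the first number within 1.5 times. No gene of the 1223 had the other sign in these fits except 15 with the highest row. With that row, log2 fold changes had the other sign for Il33 (0.19), Siglecf (-0.26) and Socs2 (-1.31, from 0.26), which differ between transcripts of a gene; the cause was not tested. As a check of pairing, deviations from the group means correlated at 0.028, 0.011 and 0.037 between same-numbered control and VILI 0 hours libraries, so the numbers were not taken as pairs, and a replicate block gave 562 calls (355 higher and 207 lower). The FPKM values carry no read counts, so the reads behind a level are not given here, and levels near 0 are the least precise.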
